A study of Mus musculus with 2 samples.

Results

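The genes described here are 46 genes of DNA replication and mitosis, out of 21851 protein-coding genes of the annotation. They were chosen for what their products do, with earlier results of these data known. Of the 46, 26 act in DNA replication, 17 act in mitosis, and Foxm1, E2f1 and E2f2 encode transcription factors that serve these programmes. Each gene was read in lists of open chromatin regions from ATAC-seq, in which a transposase cuts accessible DNA and leaves sequencing adapters there. The cells were T helper 2 (Th2) cells, the CD4 T cells of type 2 immunity, taken as primary cells from mice of the strain C57BL/6NJ. There was 1 group of 2 replicates with no control and no treated group. Sex was not collected and age is given as unknown. Both libraries carry the same donor record, so nothing says that the replicates came from separate animals, and the spread between them may be technical.

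A cell that divides must copy its DNA in S phase and separate the copies in mitosis, and the genes for these steps are switched on in waves. At replication origins, the origin recognition complex (Orc genes) with Cdc6 and Cdt1 loads the helicase made of Mcm2 to Mcm7, which later unwinds the DNA for the polymerases. Transcription factors of the E2F family bind promoters of many replication genes and drive them at the entry into S phase. Many mitosis genes are driven later through a promoter element called the cell cycle genes homology region (CHR), which the DREAM and B-Myb complexes with Foxm1 use, often beside CCAAT boxes bound by NF-Y. Naive T cells divide rapidly after activation, and Th2 cells are formed during these divisions.

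A region counted as open when regions of both replicates overlapped by at least 1 bp, and the overlapping regions were joined. A gene had an open promoter when a joined region came within 1 kb of a start site of a protein-coding transcript. All 46 members had an open promoter, against 58.3% of all protein-coding genes (12750 of 21851). The Th2 label was read against markers in the same way. Promoters were open at 6 of 6 Th2 marker genes (Gata3, Il4, Il5, Il13, Ccr4 and Ccr8) and at 6 of 6 T cell markers. They were open at 0 of 4 markers each of CD8 T and NK cells, B cells, myeloid cells, and mast cells and basophils. The region covered the start site itself at 4 of 6 Th2 markers and 5 of 6 T cell markers. Markers of other CD4 T cell types were not read, so how far these genes separate Th2 cells from those was not tested. The lists held 51458 regions in replicate 1 and 60784 in replicate 2 on the main chromosomes, and 44058 joined regions were open in both. In bulk lists such as these, a region open in more of the cells and a region more open in each cell cannot be told apart. The region names also hold a time in hours and the words ASTARR and insert. Their meaning is not stated in the sources, so the time may be a culture or treatment time, and fragments that passed through a cloned library cannot be told apart from fragments taken directly from cells.

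The sequences at the start sites differed between the replication and the mitosis members. Short words were searched on both strands from 200 bp upstream to 50 bp downstream of the start site nearest the summit, the highest point of the region. An E2F word was TTCCCGC, or its relative TTGGCGC, or its relative TTGCCGC, or its relative TTCGCGC. A CHR word was TTTGAA or its variant TTCGAA, and the CCAAT word is spelled by its name. The E2F word TTGGCGC, read on the other strand, can share letters with CCAAT. Positions are counted from the start site, with -1 the base just before it and 1 the first transcribed base. A match is a description of the letters and not a binding site. An E2F word was present at 14 of 26 replication members and 3 of 17 mitosis members, against 16.2% of all open promoters. A CHR word was present at 14 of 17 mitosis members and 2 of 26 replication members, against 9.69% of all open promoters.

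The members shown first were taken from each group by the number of the 3 word families in the window, with ties broken by mean fold, and they let the arrangement be read directly. Rfc3, Mki67 and Cdk1 held all 3 families. Mcm4 held 2, like other replication members, and had the highest mean fold of those. Each sequence is the 200 bases before the start site on the GRCm38 (mm10) genome, 5′ to 3′ on the strand of the gene, with E2F, CHR and CCAAT words in capitals. Rfc3, a subunit of the clamp loader, was read on the minus strand of chr5:151651243-151651442, and its E2F words lie after the start site, beyond these bases.
Rfc3: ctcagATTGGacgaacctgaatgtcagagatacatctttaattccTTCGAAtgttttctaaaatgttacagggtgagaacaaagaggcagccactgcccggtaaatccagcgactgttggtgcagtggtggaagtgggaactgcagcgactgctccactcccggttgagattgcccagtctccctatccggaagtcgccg
Mcm4, a helicase subunit, was read on the minus strand of chr16:15637401-15637600, where an E2F word at -77 stands 4 bases before a CCAAT box.
Mcm4: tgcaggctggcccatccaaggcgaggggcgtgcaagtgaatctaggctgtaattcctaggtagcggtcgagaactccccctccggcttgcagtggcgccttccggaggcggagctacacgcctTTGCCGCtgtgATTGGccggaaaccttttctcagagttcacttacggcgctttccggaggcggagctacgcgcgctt
Mki67, whose product Ki-67 coats mitotic chromosomes, was read on the minus strand of chr7:135716362-135716561, with 2 CCAAT boxes, then 2 CHR words at -134 and -116, then an E2F word at -85.
Mki67: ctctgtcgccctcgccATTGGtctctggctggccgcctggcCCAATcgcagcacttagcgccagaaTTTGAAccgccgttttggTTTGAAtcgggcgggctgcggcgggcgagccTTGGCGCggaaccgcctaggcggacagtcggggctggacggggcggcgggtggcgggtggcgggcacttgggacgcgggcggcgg
Cdk1, the kinase that drives entry into mitosis, was read on the minus strand of chr10:69352939-69353138, with E2F words at -152 and -104 and a CHR word at -45 between CCAAT boxes at -54 and -22.
Cdk1: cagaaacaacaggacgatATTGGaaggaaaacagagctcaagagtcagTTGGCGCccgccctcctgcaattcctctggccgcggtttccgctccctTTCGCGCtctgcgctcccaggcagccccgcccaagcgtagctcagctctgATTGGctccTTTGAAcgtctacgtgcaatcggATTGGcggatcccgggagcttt

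The CHR words of the mitosis members are shown next because most lay near the start site. For each gene the CHR word nearest the start site is in capitals with 10 bases on each side, read on the gene's strand from the same genome. A word printed as TTCAAA is TTTGAA on the other strand, and TTCGAA reads the same on both. The word of Cdc25c, TTTGAA at -26, is counted but its flanks are not printed.
Ccnb2: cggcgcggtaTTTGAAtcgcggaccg
Cdk1: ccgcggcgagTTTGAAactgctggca
Cdc25b: gctgttatttTTCGAAtatataagga
Aurka: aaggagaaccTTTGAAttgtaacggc
Aurkb: gagcgggagaTTCGAAagcgtccggg
Plk1: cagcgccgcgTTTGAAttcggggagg
Bub1: gcgcggggaaTTCGAAtcgccggcgg
Bub1b: agacgttaaaTTTGAAacttggcggc
Cdc20: acagttgggtTTTGAAggagccaatg
Top2a: tagataaaggTTCAAAtgaaactagg
Mki67: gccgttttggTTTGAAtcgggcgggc
Kif11: gtctccatttTTCAAAattgaggcgc
Kif23: gattggcctgTTTGAAatgcgccggg
Of the 14 mitosis members with a CHR word, the word nearest the start site was TTTGAA at 9, TTCGAA at 3 and TTCAAA at 2. It began within 50 bp of the start site at 13 of 17 mitosis members, against 0 of 26 replication members and 3.13% of all open promoters. The exception among the 14 was Mki67, at -116. Words at Ccnb2 and Aurka began at -3, that at Cdc20 at -9 and that at Aurkb at 2, all within 9 bp of the start site.

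All 14 also held a CCAAT box 5′ of the CHR word. The gap between the CHR word and the nearest CCAAT box before it had a median of 30 bp. It ran from 17 bp at Aurkb to 51 bp at Bub1 in 12 of the 14. The exceptions were Kif23 with 4 bp and Bub1b with 148 bp. Cdc25b, Cdc20 and Top2a each had a gap of 30 bp. The gap was not measured over all open promoters, so whether such gaps are particular to these genes was not tested. CHR and CCAAT words occurred together at 14 of 17 mitosis members and 2 of 26 replication members, against 4.02% of all open promoters. The pair among the replication members was Mcm2, with the CHR word at -70 and a gap of 100 bp, and Rfc3, with the CHR word at -155 and a gap of 35 bp.

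The E2F words of the replication members are shown for the same reason, with the word nearest the start site in capitals and 10 bases on each side. All 4 words searched occur among them, on either strand.
Mcm3: aacttccgtgGCGGGAAaacttgggaa
Mcm4: ctacacgcctTTGCCGCtgtgattggc
Mcm5: aggctggtttTTCCCGCgaaagtcggc
Mcm6: ccggaggcgcGCGCGAAgtggcagcgc
Mcm7: acgacgtttcGCGCCAAtttcggttgg
Cdc6: tagagcggctTTGGCGCgagttgactt
Cdt1: cgcggaatccGCGGGAActaccttttt
Orc1: tcggttagtgGCGCGAAaagttttctc
Rfc3: gtcgcacgctTTCGCGCtcgcgggaaa
Rfc4: ccgttctgtgGCGGGAAccgcggtgcc
Pola1: ttcaggctggTTGGCGCggaatagaga
Pole: cgtggagagcGCGCCAAattctccccg
Prim1: gcctgtcttgTTCCCGCcaattctcgt
Rrm1: ggagaactcgTTCCCGCcaggtccgct
An E2F word began within 50 bp of the start site at 12 of 26 replication members and at 1 of 17 mitosis members, Ccnb1, against 7.27% of all open promoters. In 8 of the 14 the nearest word lay after the start site, as at Pola1 at 16, Cdt1 and Rfc4 at 19 and Mcm3 at 20. This side was not counted over all open promoters. Mcm6 had 5 E2F words, at -150, -147, -87, -84 and -17, and Pola1 had 4. Of the 6 helicase genes Mcm2 to Mcm7, 5 held an E2F word in this window, with Mcm2 the exception, and all 6 held a CCAAT box. Of the 3 Orc genes, 1 held an E2F word, Orc1 at -27. At Mcm7, Prim1, Ccnb1 and Foxm1 an E2F word and a CCAAT box shared letters.

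**Figure D1:**
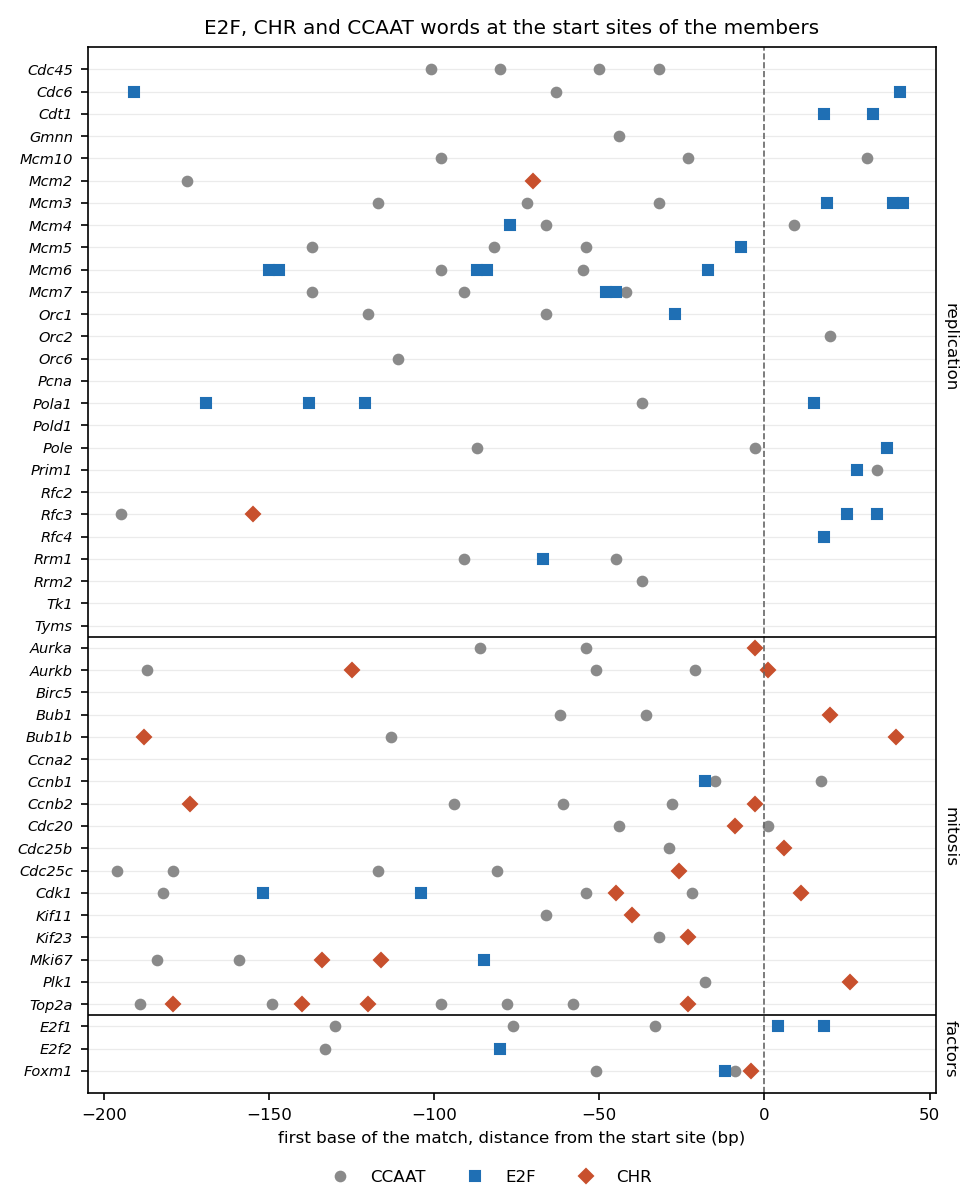
Each row is a member, with the distance of each E2F word (blue squares), CHR word (red diamonds) and CCAAT word (grey circles) from the start site (dashed line) in bp, from 200 bp upstream to 50 bp downstream. A CHR word begins within 50 bp of the dashed line in 13 of 17 mitosis rows, and E2F words are present in 14 of 26 replication rows.

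CCAAT boxes were frequent in both groups, at 19 of 26 replication members and 15 of 17 mitosis members, against 34.5% of all open promoters. Cdc45, the helicase activator, held 4 CCAAT boxes from -101 to -32 with no E2F or CHR word. Top2a, the topoisomerase that untangles sister chromosomes, held 5 CCAAT boxes and 4 CHR words. Words of all 3 families were absent at 5 replication members (Pcna, Rfc2, Pold1, Tyms and Tk1) and 2 mitosis members (Ccna2 and Birc5), against 50.6% of all open promoters. No match says only that these letters are not in this window. All 3 transcription factor genes held an E2F word, E2f1 at 5 and 19, E2f2 at -80 and Foxm1 at -12. Foxm1 also held a CCAAT box at -9 that ran directly into a CHR word at -4, with 0 bp between them.

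The Sp and Klf word and the Ets word also differed between the groups, in opposite directions, and the Nrf1 and Yy1 words were rare in both. The Sp and Klf word GGGCGG was present at 16 of 26 replication and 15 of 17 mitosis members, against 66% of all open promoters. The Ets word CCGGAA, read by a family with many members in T cells, was present at 13 of 26 replication members and 3 of 17 mitosis members, against 26.3%. The Nrf1 word GCGCATGC was present at 1 replication member and 0 mitosis members, against 5.14%. The Yy1 word AAGATGG was likewise present at 1 and 0, against 6.38%.

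The E2F and CHR words were also counted in 41 other replication genes and 40 other mitosis genes, lists chosen by function. An E2F word was present at 19 of 41 other replication genes and 6 of 40 other mitosis genes. A CHR word was present at 1 of 41, Dbf4, a regulator of the kinase that fires origins, and at 19 of 40 other mitosis genes. It began within 50 bp of the start site at 1 and 18 of them. CCAAT boxes were present at 18 of 41 and 28 of 40. The shares of E2F and CHR words in the other genes therefore lay on the same sides of the shares of all open promoters as in the members, except that E2F in the mitosis groups was near that share. The other words did not follow the members: the Ets word was present at similar shares, 19 of 41 and 17 of 40. The Sp and Klf word was present at 33 of 41 and 28 of 40, in the reverse order of the members.

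**Figure D2:**
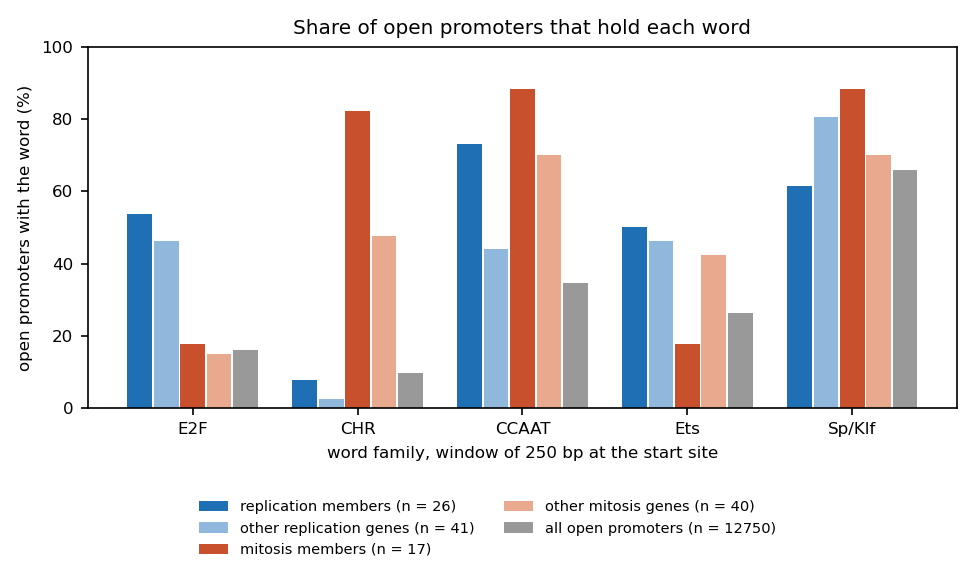
Bars give the percentage of open promoters whose 250 bp at the start site hold an E2F, CHR, CCAAT, Ets or Sp/Klf word, for replication members (26), other replication genes (41), mitosis members (17), other mitosis genes (40) and all open promoters (12750). CHR reaches 82.4% in mitosis members and 47.5% in other mitosis genes against 9.69% of all open promoters, and E2F reaches 53.8% and 46.3% in the replication groups against 16.2%.

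Base composition moves with these words, so the counts were also read by GC content. The median GC content of the window was 60.2% in replication members, 59.2% in mitosis members and 63.2% in all open promoters. With open promoters split into 4 equal bands of GC content, the CHR share of all open promoters was 19.1%, 10.02%, 6.24% and 3.02% from the lowest band to the highest. The mitosis members with a CHR word were 5 of 5, 6 of 6, 2 of 4 and 1 of 2 in these bands, and the replication members 1 of 11, 1 of 7, 0 of 6 and 0 of 2. The E2F share of all open promoters ran from 9.63% in the lowest band to 20.2% in the highest, while replication members had 5 of 11, 4 of 7, 4 of 6 and 1 of 2. In windows of 100 bp on each side of the summit in place of the start site, a CHR word was present at 9 of 17 mitosis and 3 of 26 replication members, against 6.27% of all open promoters. In windows from 500 bp upstream to 100 bp downstream it was present at 15 of 17 and 13 of 26, against 29.8%.

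Promoter strength is given as the authors' fold enrichment at the summit over local background, first in replicate 1 and then in replicate 2. Strong and weak below mean a high or low fold and nothing more. Transcription was not measured, and a fold can be low where the local background is high. The median over the 46 members was 11.2 and 12.6, and over all open promoters 9.64 and 10.9. Taking the mean of both replicates for each gene, 34 of 46 members lay above the median of all open promoters, against 50% by construction. Of the 46, 14 lay above the upper quartile of 12.8 and 5 below the lower quartile of 7.38, against 25% of open promoters on each side. Fold enrichment was higher in replicate 2 at 42 of 46 members and at 81% of all open promoters. The exceptions were Mcm5, Orc2, Rfc4 and Tyms. The summit counts behind the values, recovered from the deposited fold and p-value, were 47 to 302 per library. The local background counts were recovered with them and also differed between members.

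**Figure D3:**
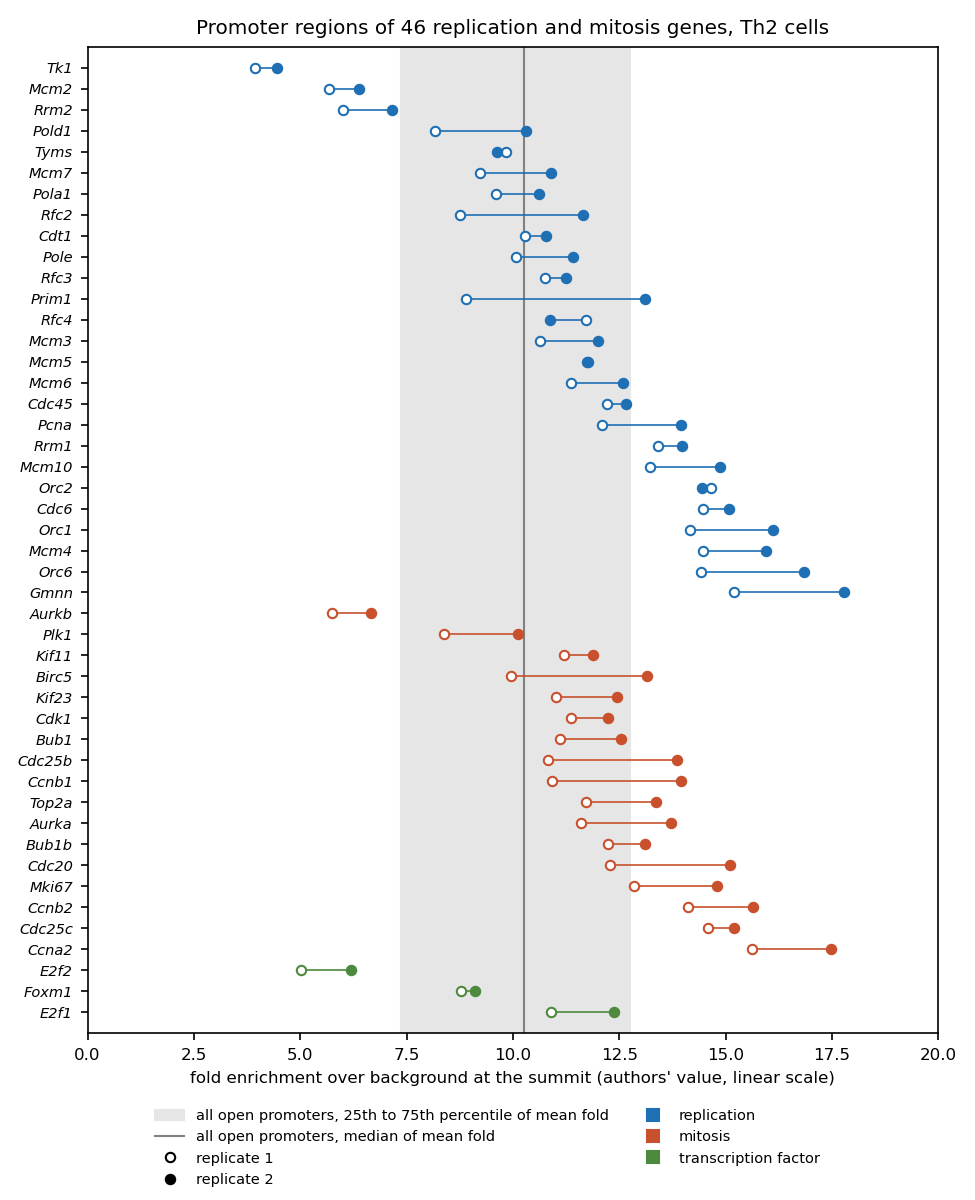
Fold enrichment at the summit (linear axis) of each member's promoter region in replicate 1 (open points) and replicate 2 (filled points), for replication (blue), mitosis (red) and transcription factor (green) genes. The grey band is the 25th to 75th percentile of all open promoters (7.38 to 12.8), and Tk1, Mcm2, Rrm2, Aurkb and E2f2 lie below it in both replicates.

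The 14 genes of the pre-replication complex and its control had the highest medians of the 3 replication roles. Their median fold enrichments were 12.7 and 13.6, and 7 of the 14 lay above the upper quartile of all open promoters. Gmnn, which encodes geminin, the inhibitor of Cdt1, had 15.2 and 17.8 at chr13:24761257-24762484, with 98.1% of open promoters below it. Orc6, a subunit of the origin recognition complex, had 14.4 and 16.8 at chr8:85298723-85300272. Orc1, the largest subunit of that complex, had 14.2 and 16.1 at chr4:108578841-108579905. Orc2 had 14.7 and 14.4 at chr1:58504187-58505416. The loading factor Cdc6 had 14.5 and 15.1 at chr11:98907383-98908345, whereas its partner Cdt1 had 10.3 and 10.8, near the median of all open promoters. Cdc6 lay above Cdt1 in fold in both replicates, with no overlap. Their summit counts were nearly equal, with 165 and 196 at Cdc6 and 166 and 197 at Cdt1. The local background was 10.5 and 12.1 at Cdc6 and 15.2 and 17.4 at Cdt1.

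The 6 helicase genes were unlike one another. Mcm4 had 14.5 and 15.9 at chr16:15636744-15638235. Mcm6 had 11.4 and 12.6, Mcm5 had 11.8 and 11.7, and Mcm3 had 10.6 and 12.0. Mcm7 had 9.22 and 10.9, and Mcm2 had 5.67 and 6.37 at chr6:88898268-88899085, a region of 818 bp. In fold, Mcm4 was highest and Mcm2 lowest in both replicates, with no overlap of either with the other 4, which overlapped among themselves. Mcm2 was also the helicase gene with no E2F word in the window at the start site, although the 200 bp at its summit held one. Across the replication group, though, the median of the mean fold was 11.3 for the 14 members with an E2F word and 11.3 for the 12 without. Mcm10 and Cdc45, which activate the loaded helicase, had 13.2 and 14.9 at chr2:5011885-5013046, and 12.2 and 12.7 at chr16:18811138-18812605.

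The 8 genes of the replication fork had median fold enrichments of 9.84 and 11.3, close to those of all open promoters. Pcna, the sliding clamp that holds polymerases on DNA, was highest with 12.1 and 13.9 at chr2:132252455-132253592. The clamp loader genes Rfc2, Rfc3 and Rfc4 had 8.77 and 11.6, 10.7 and 11.3, and 11.7 and 10.9, so their order changed between replicates. Among the polymerase genes, Pola1 had 9.60 and 10.6, Pold1 had 8.17 and 10.3, and Pole had 10.1 and 11.4. Prim1, the primase subunit that makes the RNA primer, had 8.91 and 13.1 at chr10:128014918-128015765, the widest ratio between replicates of any member at 1.47. Its summit counts were 47 and 93, and those of Pola1 were 47 and 62, among the lowest of the members.

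The 4 genes of nucleotide supply held 2 of the 3 lowest promoter folds of the replication group. The subunits of ribonucleotide reductase, which makes deoxynucleotides, lay far apart in fold, with 13.4 and 14.0 at Rrm1 and 6.00 and 7.15 at Rrm2. Rrm2 was not lower in summit counts, with 121 and 179 against 118 and 149 at Rrm1. Its local background was higher, at 19.3 and 24.2 against 7.87 and 9.74. The Rrm2 region at chr12:24706827-24708915 was the widest of the members at 2089 bp. Tyms, which makes thymidylate, had 9.85 and 9.63 at chr5:30072571-30073934. Tk1, the thymidine kinase, had 3.95 and 4.46 at chr11:117824518-117826271, and 5.53% of open promoters were weaker. Its summit lay 1287 bp after the start site, the farthest of the members, and its region was called as 1 region in replicate 1 and 2 regions in replicate 2. When each region had to overlap 50% of the other, Tk1 was the member that no longer had a promoter region.

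The 17 mitosis members had medians of 11.4 and 13.4, and 15 of them lay above the median of all open promoters. Ccna2, the cyclin of S phase and early mitosis, had 15.6 and 17.5 at chr3:36571466-36572566. It was the highest of the 46 members in replicate 1, and Gmnn was in replicate 2. The B-type cyclins that activate Cdk1 had 14.1 and 15.6 at Ccnb2 (chr9:70421062-70422030) and 10.9 and 14.0 at Ccnb1 (chr13:100785848-100786980). Cdk1 had 11.4 and 12.2 at chr10:69352146-69353313. The phosphatase genes whose products remove the inhibitory phosphates from Cdk1 had 14.6 and 15.2 at Cdc25c and 10.8 and 13.9 at Cdc25b. In replicate 2 these cyclin and phosphatase genes all lay above Cdk1 and above the 75th percentile of all open promoters (13.5). In replicate 1 Ccnb1 and Cdc25b lay below Cdk1 and below that percentile (12.1), so their order against Cdk1 changed between replicates.

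The mitotic kinase genes differed among themselves. Aurka, which acts at the spindle poles, had 11.6 and 13.7 at chr2:172370149-172371329, whereas Aurkb, which acts at centromeres, had 5.75 and 6.66 at chr11:69045418-69046545. Plk1, the Polo-like kinase, had 8.37 and 10.1 at chr7:122158727-122160273. Aurkb and Plk1 were the 2 mitosis members below the median of all open promoters, and Aurkb lay below Plk1 in fold in both replicates. In summit counts the order was the reverse, with 96 and 129 at Aurkb and 76 and 90 at Plk1. The local background was 15.9 and 18.5 at Aurkb and 8.20 and 7.99 at Plk1. The spindle checkpoint kinase genes Bub1 and Bub1b had 11.1 and 12.5, and 12.2 and 13.1. Their target Cdc20, which activates the anaphase-promoting complex, had 12.3 and 15.1 at chr4:118436668-118438166.

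The 5 genes of chromosome structure and the spindle lay close together. Mki67 was highest with 12.9 and 14.8 at chr7:135715468-135717089. Top2a had 11.7 and 13.4 at chr11:99023396-99024833. The kinesin genes Kif11 and Kif23, whose products build the bipolar spindle and the central spindle, had 11.2 and 11.9, and 11.0 and 12.5. Birc5, the survivin gene of the chromosomal passenger complex, had 9.96 and 13.1 at chr11:117848258-117849590. Survivin and Aurkb are partners in that complex, and the Birc5 promoter had the higher values in both replicates. The transcription factor genes had 10.9 and 12.4 at E2f1 (chr2:154568966-154570661), 8.78 and 9.11 at Foxm1 (chr6:128362095-128363574), and 5.01 and 6.19 at E2f2 (chr4:136172027-136173651). E2f2 lay below the others in both replicates.

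Set side by side, the median of the mean fold was 11.3 for replication members and 12.4 for mitosis members, a difference of -1.13 (SD between replicates 0.83). In replicate 1 the medians were 11.1 and 11.4, a difference of -0.31, and in replicate 2 they were 11.9 and 13.4, a difference of -1.49. The difference thus had 1 sign in both replicates, and in replicate 1 alone it was smaller than the spread between replicates. Mitosis members were higher in replicate 2 at 17 of 17, and replication members at 22 of 26.

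Markers of the cell type had lower promoter folds than most of these genes, which says nothing of their transcription. The Th2 markers had median fold enrichments of 6.73 and 7.22, with Il13 lowest at 3.99 and 5.60 and Il5 highest at 8.20 and 9.13. The T cell markers had medians of 7.37 and 7.97, with Cd4 lowest at 2.75 and 3.88. Lck was highest in replicate 1 at 8.43 and Cd28 in replicate 2 at 9.17. No Th2 or T cell marker reached the median of all open promoters.

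The other replication and mitosis genes were open throughout, at 41 of 41 and 40 of 40. Their median fold enrichments were 12.2 and 13.6 for replication, and 11.8 and 13.6 for mitosis. The median of the mean fold was 12.9 and 12.5, so the difference between the members, with mitosis higher, was not seen in these larger lists. The strongest other replication genes were Gins4 and Gins2, subunits of the active helicase, with 15.7 and 17.2, and 15.7 and 16.7, and Pole4 with 14.9 and 17.2. The weakest were Mcmbp with 5.08 and 5.39, Dbf4 with 6.26 and 7.11, and the flap nuclease gene Fen1 with 6.997 and 9.04. Of the other mitosis genes, Ccnf had 17.5 and 17.3, Cdca8, a further passenger subunit, 16.5 and 17.9, and the kinetochore gene Cenpf 15.9 and 16.8. The weakest were Bub3 with 6.91 and 8.49, Cenpe with 8.24 and 9.21, and Cdca3 with 8.83 and 9.49.

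Germ cell relatives of these genes mostly lacked an open promoter. Of 16 genes of meiosis and the germ line, such as the paralogs Aurkc and Ccna1 and the synaptonemal complex genes Sycp1, Sycp2 and Sycp3, 4 had one. These were Stag3 with 12.6 and 15.2, Cdc20b with 8.01 and 9.57, Rec8 with 6.14 and 6.84, and Mei1 with 5.39 and 7.91. A CHR word was present at 0 of the 4, and an E2F word at 2, Stag3 and Cdc20b.

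Region widths were close in the main groups, and summit positions differed between the replication and mitosis members. The median width of the joined region was 1229 bp in replication members, 1181 bp in mitosis members and 1194 bp in all open promoters. It was 1559 bp in the 4 nucleotide supply genes and 1625 bp in the 3 transcription factor genes. Widths ran from 666 bp at Bub1b to 2089 bp at Rrm2. All 46 regions covered the start site, against 93.4% of all open promoters. The summit lay upstream of the start site at 17 of 17 mitosis members and 16 of 26 replication members, against 57.7% of all open promoters. It lay upstream at 29 of 40 other mitosis genes and 30 of 41 other replication genes, so this difference was not seen in the larger lists. The median summit position was -56 bp in mitosis members and -35.5 bp in replication members. Summits of the replicates lay a median of 4 bp apart. In the nucleotide supply group all 4 summits lay after the start site, from 30 bp at Rrm1 and 136 bp at Rrm2 to 248 bp at Tyms and 1287 bp at Tk1.

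**Figure D4:**
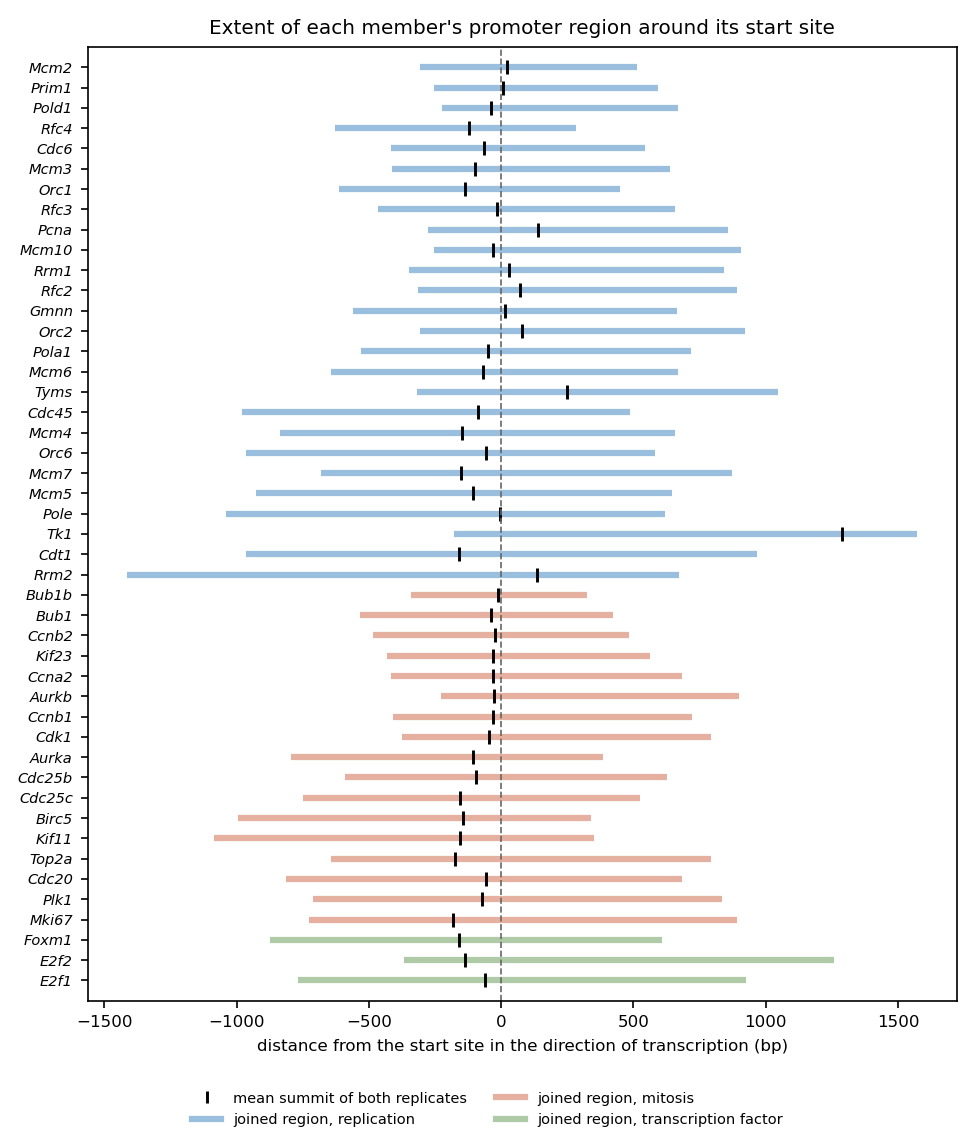
Bars show the joined promoter region of each member relative to its start site (dashed line), in bp in the direction of transcription, and black ticks the mean summit of both replicates. All 17 mitosis ticks lie left of the start site, and the Tk1 tick stands 1287 bp to the right.

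At 10 of the 46 members the promoter region also covered the start site of another protein-coding gene, against 18% of all open promoters. In each case the neighbour ran the other way, as at 2120 of the 2296 open promoters that cover another gene's start. A single region then served the starts of both genes, and its fold cannot be assigned to either. The pairs were Mcm4 with Prkdc, which encodes a DNA repair kinase, Mcm7 with Ap4m1, Cdc45 with Ufd1, Orc1 with Prpf38a and Orc6 with Vps35. The others were Pole with Pxmp2, Tk1 with Afmid, Cdc25b with Spef1, Aurka with Cstf1, and Foxm1 with Rhno1. Their regions had a median width of 1486 bp against 1198.5 bp in the other 36 members. The median of the mean fold was 12.4 in these 10 and 11.7 in the 36.

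Open regions away from promoters were few around most members. Counting from 20 kb before each gene to 20 kb after it, the median member had 3.5 open regions, against 2 for all protein-coding genes, and 1 region away from any promoter, as for all genes. No region away from promoters was found for 15 of 46 members, against 42% of all genes. All genes include 9101 without an open promoter, whereas every member had one that counts in its window. These counts are therefore not set beside open genes alone. The windows held 175 distinct regions, of which 1 lay in the windows of both Tk1 and Birc5. Counted for each member, 47 were own promoters (Pold1 had 2), 48 promoters of other genes, 13 own introns, 1 an own exon, 31 within other genes and 36 intergenic. Promoters and genes here are those of protein-coding genes. Non-coding genes were not checked, so a region called intergenic or away from promoters may lie at one. Gmnn, Mcm4, Mcm10, Rfc3, Tyms, Ccnb2 and Plk1 had no open region in the window but the promoter.

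**Figure D5:**
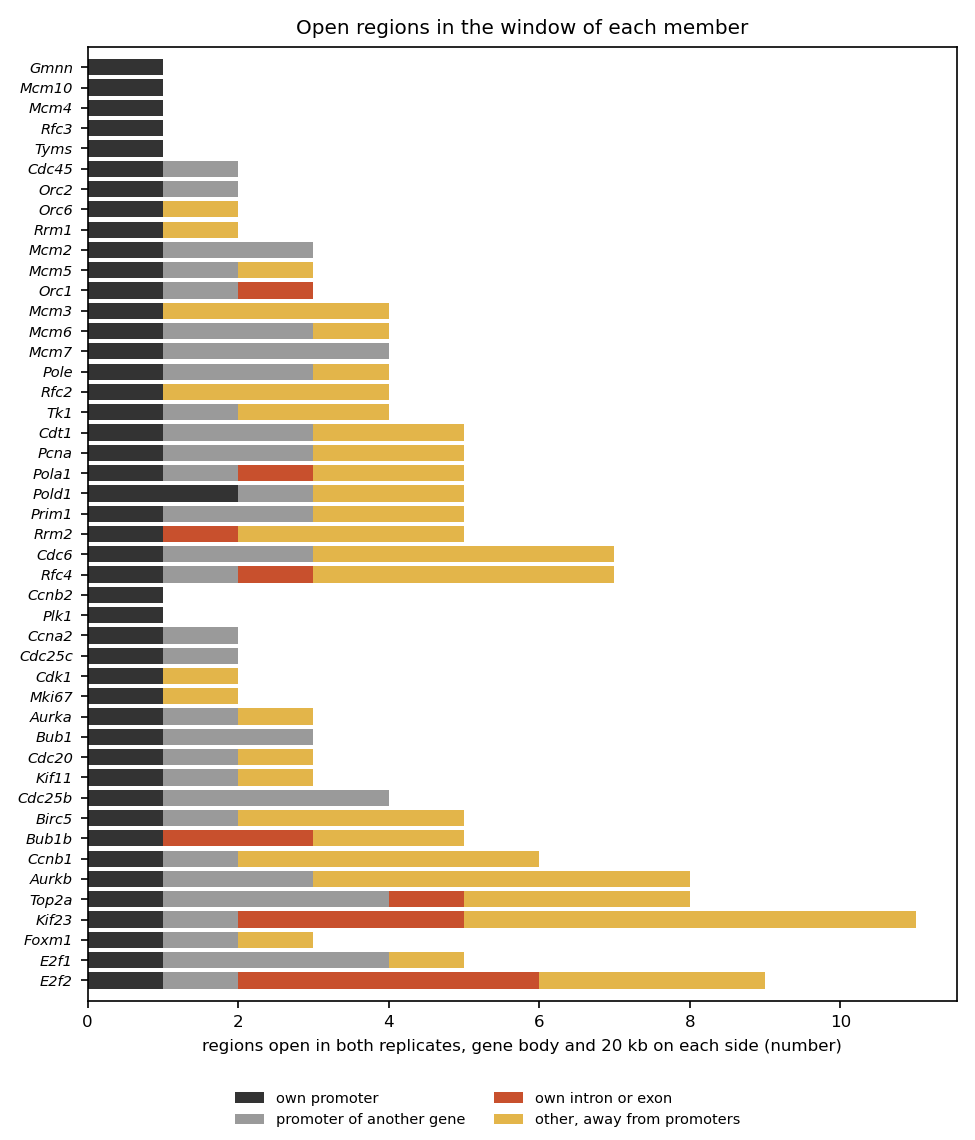
Bars count the regions open in both replicates from 20 kb before to 20 kb after each member, by place. The bar of 7 members holds only the own promoter, and the longest bars are Kif23 with 11, E2f2 with 9, and Aurkb and Top2a with 8 regions.

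Kif23 had the most regions, 11, with 2 in its introns and 1 over an exon. The exonic region at chr9:61931883-61932455 had 4.41 and 3.40, and the stronger intronic region at chr9:61933233-61933828 had 8.03 and 7.66. E2f2, a weak promoter, had 9 regions with 4 in its introns, the strongest at chr4:136180033-136180615, 7.93 kb after the start site, with 6.00 and 5.97. That intronic region and the E2f2 promoter had values of similar size in both replicates. Aurkb and Top2a had 8 regions each, of which 5 and 4 lay away from promoters.

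The strongest region of these windows away from protein-coding promoters lay between protein-coding genes, 19.7 kb upstream of Mki67 at chr7:135735532-135736579. It had 13.1 and 16.4, above the Mki67 promoter in both replicates. The region in the windows of both Tk1 and Birc5 lay within Afmid at chr11:117832143-117832965, 6.46 kb upstream of Tk1 and 16.7 kb upstream of Birc5, with 10.4 and 13.3. A region within Paqr5 in the Kif23 window at chr9:61965307-61965964 had 10.5 and 10.9, below the Kif23 promoter. Inside members themselves, an Orc1 intron held a region at chr4:108589985-108590846 with 7.81 and 11.3, and a Bub1b intron a region at chr2:118620398-118621251 with 7.47 and 11.1, both below the promoter of the gene. Which gene any of these regions acts on was not measured.

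Across the 80 regions away from promoters, the median fold was 5.01, against 5.90 over all 31520 such regions. In 200 bp at their summits, the AP-1 word TGANTCA was present in 20% against 27.9% of all such regions, and the Runx word ACCACA in 20% against 22.4%. The Gata word AGATAA was present in 12.5% against 11.7% and the Ets word in 7.5% against 4.51%. The AP-1 word was present in the Tk1 and Birc5 region, the Paqr5 region and the Orc1 intron, but not in the region upstream of Mki67, which held an Ets word.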

How the data were processed

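ATAC-seq of 1 group with 2 replicates was analysed from the deposited region lists. Regions were called on each library alone, from 1 alignment on mm10, per the file headers, and replicates were not pooled. The deposited fold enrichment, a ratio of summit to local background, and the deposited −log10 p and −log10 q of each region are the authors' own, with a lowest −log10 q of 1.00 and 1.01. The deposited score is derived by the authors from −log10 q and was not used. An aligner, caller, transposase shift or version is not given in the sources used here, nor is depth. Summit counts were recovered from fold and p under a Poisson model with a pseudocount of 1, matched −log10 p within 0.000186 at the members, and limit precision by counting error only.

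Replicate regions overlapping by 1 bp or more were joined (44058 regions on 21 chromosomes). Promoters lay within 1 kb of any start site of protein-coding transcripts (GENCODE M21 basic, GRCm38), and the region of highest mean fold was taken where a gene had more than 1. Sequences came from the RefSeq GRCm38.p6 genome, with 0 regions past a chromosome end. Python 3.11.15, numpy 2.4.6, pandas 2.3.3 and scipy 1.17.1 were used, and overlap, promoter, word and count code was tested on simulated data. Without a control there is no comparison of samples, so counts and medians are descriptions with no test. Named genes were every member, the neighbours whose start a member's region covers, and the 3 highest and 3 lowest of each other list by mean fold. Promoters printed were the 2 members of each group with most word families, ties broken by mean fold, not on chromosome 18, and the distal regions described were picked after their values were seen. Members and lists were chosen with earlier results of these data known. Alternatives varied overlap, q, replicates, promoter reach, start site, window, measure and grouping.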

Additional observations from a re-analysis of the deposited data

How the results depend on the processing

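No difference between replication and mitosis members changed sign. The other results are counts and medians of positive values and could not change sign. The count of members with an open promoter was 46 in 6 of its 8 alternatives. It was 45 with 50% overlap of each region, which lost Tk1, and 45 with the 5′ end of the gene as its only start site, which lost Rfc2. Measured on other scales, the median promoter strength was 102.088 as −log10 p and 89.047 as a percent rank in the list, and the difference of replication minus mitosis members was -3.575 as a percent rank and -0.663 as −log10 p, small beside that median. Without a replicate, that difference in fold was -1.49 to -0.31 and the median width, then of 1 list and not of joined regions, was 1147 to 1172 bp. The median number of regions per member, 3.5, was 3 with 50% overlap, 2.5 with −log10 q of at least 10, 4 to 4 without a replicate, 1 in the gene body alone, 9 with 100 kb on each side and 1 with regions at promoters left out. The CHR share of mitosis minus replication members, 74.7 percentage points, was 41.4 at summits and 38.2 from 500 bp upstream to 100 bp downstream, where the share of all open promoters was 6.27% and 29.8%. The cause was not tested. The E2F difference, 36.2 points, ran from 26.7 to 41.6 over its 5 alternatives, and the CCAAT difference, 15.2 points, from 5.66 to 19.004. For each word, the alternative of all members could not differ from the main setting, because all 46 had an open promoter. Promoters counted by the centre of the region, an alternative chosen after seeing the data, gave the same 46 members. No paired analysis was possible because there was 1 group. Precision is limited by 2 libraries with 47 to 302 summit counts per member.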
